A study of Mus musculus with 5 samples.

Results

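*Pax6* and the 4 genes listed with it, *Elp4*, *Immp1l*, *Rcn1* and *Wt1*, lie on mouse chromosome 2 beside *Paupar*, a long non-coding RNA (lncRNA) transcribed away from *Pax6* on the opposite strand. The genes were chosen by name, and with them every *Paupar* CHART-Seq peak whose midpoint fell between 104.5 and 107.0 Mb of chromosome 2 in the mm9 assembly. This position rule used no measured value. It took 4 of the 268 peaks on chromosome 2 and of the 2849 peaks in the whole list, and the window overlapped 19 of the 22380 protein-coding genes of the annotation.

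CHART-Seq (capture hybridisation analysis of RNA targets with sequencing) fishes a chosen RNA out of cross-linked chromatin with biotinylated antisense oligonucleotides and sequences the DNA that comes with it. The cells were untreated N2A, a mouse neuroblastoma line, and DNA was released with RNase H. There were 2 pull-downs of endogenous *Paupar*, 2 control pull-downs with a *LacZ* oligonucleotide of *E. coli* sequence, and 1 library of input DNA. A peak marks DNA recovered with *Paupar*, directly or through other molecules. Only a single list was used, of peaks found against both *LacZ* and input, with a position and a score per peak. No value below therefore has a spread between libraries.

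*Pax6* encodes a transcription factor with a paired domain and a homeodomain, which is needed in the developing eye, forebrain and pancreatic islets. Its expression is known to depend on enhancers far from its promoters, several of them inside introns of the neighbouring *Elp4*, which encodes a subunit of the Elongator complex. *Immp1l* encodes a subunit of a peptidase of the mitochondrial inner membrane, *Rcn1* encodes reticulocalbin 1, a calcium-binding protein of the endoplasmic reticulum, and *Wt1* encodes a zinc finger transcription factor of kidney and gonad. *Pax6os1* is a non-coding transcript on the strand opposite to *Pax6*, with *Paupar* inside its span. Its 5′ end overlaps the first 1435 bp of *Pax6*, and the rest runs away from the gene.

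The 4 capture oligonucleotides show which parts of *Paupar* the pull-down was designed to bind, and each had a single exact place in the genome. They are given from the oligonucleotide list in the supplement of the study, 5′ to 3′, and are complementary to the transcript. The primers for its full length span 3517 bases, chr2:105498019-105501535, on the minus strand.
CHART 254: ggcttaagtccacccctggattcg
CHART 428: gcctggaactagatcaaggcagag
CHART 2041: ctctcagaaactgcgatacaaaag
CHART 2067: gaggcctagtcaaaatatctccac
Counted from the 5′ end of this span, the first of them paired with bases 289 to 312, the next with bases 463 to 486, and the last pair with bases 2076 to 2099 and 2102 to 2125. Each first position was 35 above the number in the name of the oligonucleotide, so those numbers count from another base. On the genome the edges of these sites nearest to *Pax6* lay 7806 to 9619 bp upstream of the *Pax6* start. The 5′ end of the primer span, taken here as that of *Paupar*, lay 7518 bp from that start.

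No peak overlapped *Paupar* or any of the 5 genes. The nearest peak to *Paupar* ended 108019 bp from its 3′ end, and no peak had its midpoint within 100 kb of the *Pax6* start. A place without a listed peak is one where no call was kept, and the list does not say how much DNA was recovered there. The authors kept only reads of 50 bases with a single place. Of the 50-base words of *Paupar*, 98.9% had no exact copy elsewhere in the genome, and the share was 99.3% for *Pax6*, 97.3% for the 100 kb on either side of the *Pax6* start, 91.4% for the stretch from the right *Pax6os1* peak to that start and 93.4% for the whole window. The shares count exact copies of single words, whereas the authors mapped read pairs with up to 2 mismatches, so they do not measure which pairs could be placed. The part of mappability in the absence of peaks was not tested.

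The 4 peaks of the window fell at 3 places. A pair lay together in an intron of *Pax6os1*, between *Rcn1* and *Pax6*. A single narrow peak lay in an intron of *Mpped2*, which encodes a metallophosphoesterase, and the last lay between *Fshb*, which encodes the beta subunit of follicle-stimulating hormone, and *Kcna4*, which encodes a voltage-gated potassium channel. None of the 4 overlapped an annotated exon.

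**Figure D1:**
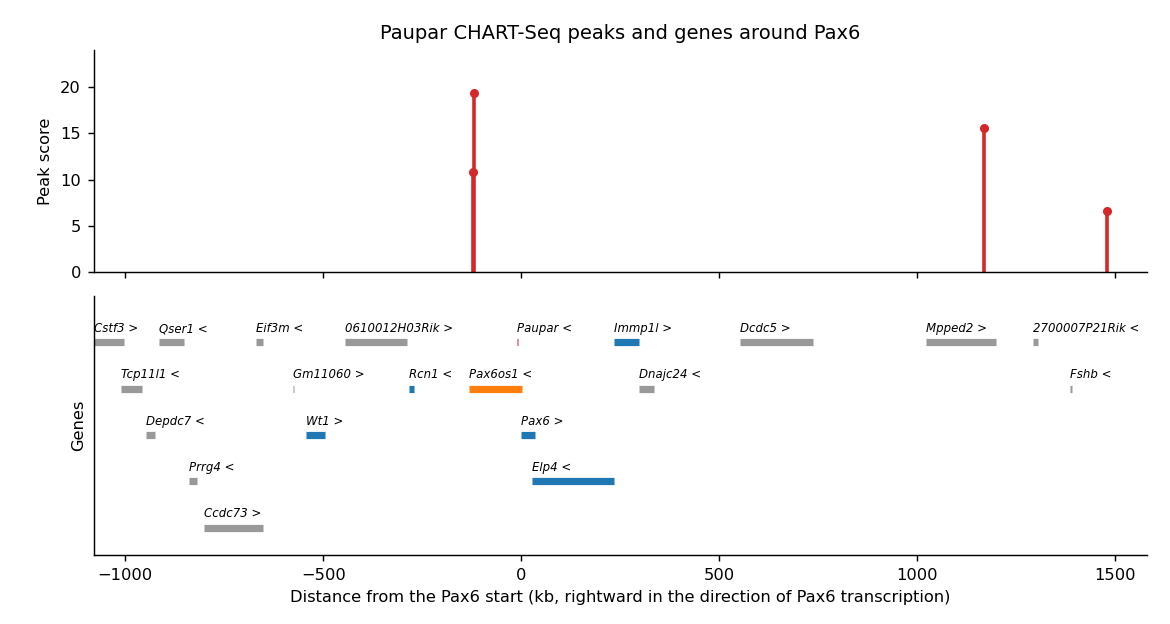
Top: score of each of the 4 peaks (vertical axis) against distance from the *Pax6* start in kb (horizontal axis). Bottom: the protein-coding genes of the window in grey, the 5 listed genes in blue, *Pax6os1* in orange and *Paupar* in red, with > or < for the direction of transcription. Between the *Pax6os1* pair, about 120 kb left of *Pax6*, and the *Mpped2* peak, 1169084 bp to its right, there is no peak.

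The left peak of the *Pax6os1* pair covered chr2:105386691-105387336, was 646 bp wide and had a score of 10.76, which ranked 1800 among the 2849 scores from the top. The right peak covered chr2:105387531-105390000, was 2470 bp wide and had a score of 19.32, which ranked 678. It was the widest and the highest scoring of the 4, and its width ranked 86 in the whole list. The pair lay in 1 intron of *Pax6os1*, 9294 bp from the exon on its left and 34979 bp from the exon on its right. Their midpoints were 122040 bp and 120288 bp upstream of the *Pax6* start, and *Pax6* was the nearest protein-coding start to both.

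The *Mpped2* peak covered chr2:106678016-106678258, was 243 bp wide and had a score of 15.55, which ranked 998. It lay 23387 bp from the nearest *Mpped2* exon, 1169084 bp from the *Pax6* start, and the nearest protein-coding start to it was that of *2700007P21Rik*, at 136444 bp. The intergenic peak covered chr2:106990158-106990379, was 222 bp wide and had a score of 6.58, which ranked 2789. The nearest start was that of *Fshb*, at 90456 bp, and it was the only one of the 4 with a score under 10. The *Mpped2* peak had the highest GC content of the 4, at 52.3%, while the left, right and intergenic peaks had 43.0%, 43.2% and 40.5%.

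The 4 widths had a median of 444.5 bp and ran from 222 to 2470 bp, and all peaks together had a median of 556 bp and ran from 162 to 9443 bp. The side of 556 bp on which the window median fell depended on the peaks taken. It was 646 bp with a score of at least 10, and 1558 bp for the 2 peaks within 1 Mb on either side of *Paupar*. The median score was 13.16 in the window, 12.29 over chromosome 2 and 12.69 over all peaks. With at most 4 values from the window these medians are descriptions only. On chromosome 2, 47% of the peaks had their midpoint in an intron of a protein-coding gene, 38.8% in no gene and 7.84% in an intron of a gene of another type only, the place of the *Pax6os1* pair.

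**Figure D2:**
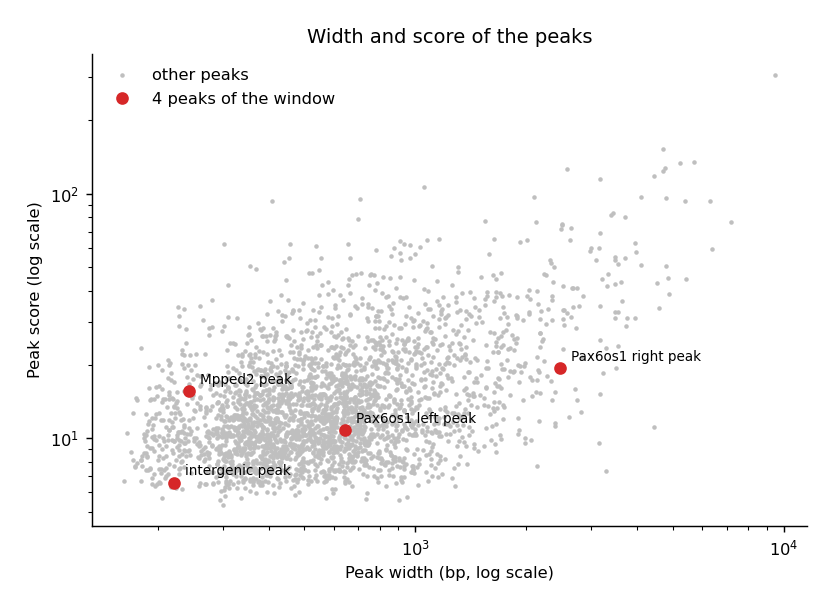
Width in bp (horizontal, log scale) and score (vertical, log scale) of all 2849 peaks, with the 4 peaks of the window in red. The *Pax6os1* right peak, 2470 bp wide, stands among the wide peaks, and the *Mpped2* and intergenic peaks, 243 and 222 bp wide, stand near the narrow end. The intergenic peak is also near the lowest scores, at rank 2789.

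The pair was separated by 194 bp. Another peak within 10 kb was found for 2 of the 4 window peaks, for 7.46% of the peaks of chromosome 2 and for 12.5% of all peaks, and 26 of 2828 neighbouring pairs on chromosomes 1 to 19 and X were separated by at most 200 bp. The stretch between the peaks of the pair was a tandem repeat of a 27-base unit, and it is printed whole because the edges of both peaks fall in it. It covers chr2:105387337-105387530 on the plus strand, and every other whole copy of the unit is in capitals, while the part copies at both ends are in lower case.
repeat between the peaks: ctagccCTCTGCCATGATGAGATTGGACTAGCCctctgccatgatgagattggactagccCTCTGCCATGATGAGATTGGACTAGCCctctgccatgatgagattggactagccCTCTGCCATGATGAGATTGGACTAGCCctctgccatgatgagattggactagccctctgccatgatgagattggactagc
With up to 5 mismatches per unit, 19 copies ran over 513 bp, from chr2:105387289 to 105387801, and 13 of them were exact. All 194 bp between the peaks belonged to the repeat, as did the last 48 bp of the left peak and the first 271 bp of the right peak. The exact unit occurred at no other place of chromosome 2 and on no other chromosome.

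The longest run in which every base equalled the base 27 positions further on was 225 bases. Among the 2849 peaks, each taken with 200 bp on either side and searched for periods of 10 to 60 bases, 1 had a run at least this long, the right peak itself. The limit was the run of this same repeat, so the right peak met it by construction. With its 200 bp the left peak takes in only part of the repeat. No 50-base word that lay wholly between the peaks had a single place in the genome, and 11 places was the most that a word had. Of the left peak, 100% of the words had a single place, and of the right peak 95.1%, while over all peaks the median was 100% and 37 peaks were under 50%. A read in the repeat can still be placed through its mate, and the part of the repeat in the division of the pair into 2 peaks was not tested.

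**Figure D3:**
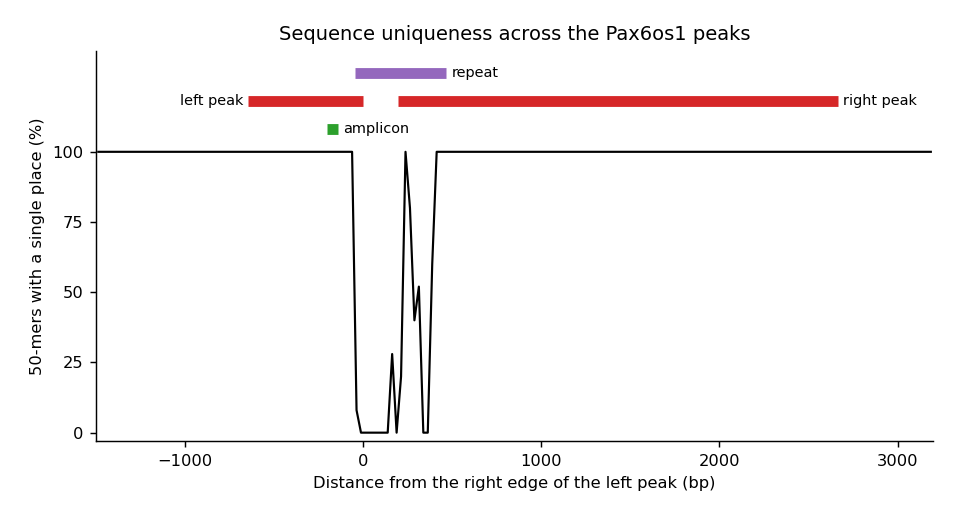
Share of 50-base words that occur at a single place in the genome (vertical axis, percent, in bins of 25 bp) across the *Pax6os1* pair, against distance from the right edge of the left peak in bp. Bars above the line mark the 2 peaks in red, the repeat in purple and the qPCR amplicon in green. The share is 100% away from the repeat and 0 over most of the stretch between the peaks, with a bin of 28% near its right end, where words reach into the right peak.

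A qPCR primer pair designed by the study for this site had its product of 62 bp at chr2:105387133-105387194, wholly inside the left peak and outside the repeat. It is printed on the plus strand with the primers in capitals.
amplicon in the left peak: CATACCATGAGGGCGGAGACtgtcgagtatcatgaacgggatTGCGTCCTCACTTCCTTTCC
The primer pairs for 2 *Pax6* promoter fragments placed the P0 promoter at chr2:105506556-105509052 and the P1 promoter at chr2:105514103-105516601. The nearest peak edge was 116556 bp from the P0 fragment and 124103 bp from the P1 fragment, so neither promoter held a peak.

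The narrow peaks are shown whole, on the plus strand, since they are short enough to read. Capitals mark the longest exact match, on either strand, to a capture oligonucleotide.
Mpped2 peak: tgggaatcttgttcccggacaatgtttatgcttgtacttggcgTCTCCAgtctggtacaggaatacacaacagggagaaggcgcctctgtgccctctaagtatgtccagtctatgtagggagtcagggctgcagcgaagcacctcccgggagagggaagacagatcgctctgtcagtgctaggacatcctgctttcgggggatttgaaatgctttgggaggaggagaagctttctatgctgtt
intergenic peak: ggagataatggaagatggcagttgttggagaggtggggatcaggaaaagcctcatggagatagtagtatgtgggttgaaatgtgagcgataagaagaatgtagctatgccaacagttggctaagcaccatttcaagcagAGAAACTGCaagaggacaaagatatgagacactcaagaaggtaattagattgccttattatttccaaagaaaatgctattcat
The match in the *Mpped2* peak was 6 nt long, to CHART 2067, and 98.2% of windows of this width centred on all peaks held a match as long. In the intergenic peak it was 9 nt, to CHART 2041, against 30.5% of such windows. The left peak held matches of 8 nt, which 88.3% of windows of its width also held, and the right peak held a match of 10 nt to CHART 428, which 42.1% also held. That match is shown with the 10 bases on either side and the match in capitals.
right peak, chr2:105389557-105389566: ggtactggccATCTAGTTCCtgattaacca

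With a minimum of 10 nt, a match to a capture oligonucleotide was thus present in 1 of the 4 peaks, or 25% (exact binomial interval 0.631% to 80.6%, counting error only), and in 24.6% of all peaks. Against the whole *Paupar* transcript, the longest exact matches of the left, right, *Mpped2* and intergenic peaks were 12, 12, 10 and 10 nt. Matches as long were held by 51.9%, 95.2%, 88.6% and 86.6% of windows of the same widths at all peaks. The repeat unit matched *Paupar* over at most 8 nt and the capture oligonucleotides over at most 7 nt.

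Short words, 3 in all, were searched as exact letters on both strands: TTCACGC, and CACCCC and ATCATC, which were taken from an earlier analysis of these data. TTCACGC, the start of a site of the PAX6 paired domain, was in none of the 4 peaks, and 0.281% to 5.02% of windows of the same widths at all peaks held it. CACCCC was in none of them either, and it was held by 51.5%, 81.9%, 30% and 28.1% of windows as wide as the left, right, *Mpped2* and intergenic peaks. ATCATC occurred once, in the right peak, where 61.3% of windows of that width held it, and it was absent from the repeat. A word that is not found says only that these letters are not in the window.

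Seen from the genes, *Pax6* was the nearest of the 5 to a peak. *Pax6* (chr2:105509053-105543317, plus strand) had its nearest peak midpoint 120288 bp upstream, and 29.7% of all protein-coding genes had a peak nearer to their start. *Rcn1* (chr2:105226448-105239476, minus strand) came next, with the left peak of the pair 147538 bp upstream and 34.4% of genes nearer. *Elp4* (chr2:105537477-105744721, minus strand) and *Immp1l* (chr2:105744795-105805715, plus strand) start back to back and were 355956 bp and 356030 bp from the right peak, each with 56.4% of genes nearer. *Wt1* (chr2:104966686-105013773, plus strand) was the farthest, with the left peak 420328 bp downstream and 60.6% of genes nearer. The median over all protein-coding genes was 277386 bp, so *Pax6* and *Rcn1* were nearer than the median and the other 3 were farther. All 5 distances lead to the same pair, and the genes are not independent of one another in this measure.

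**Figure D4:**
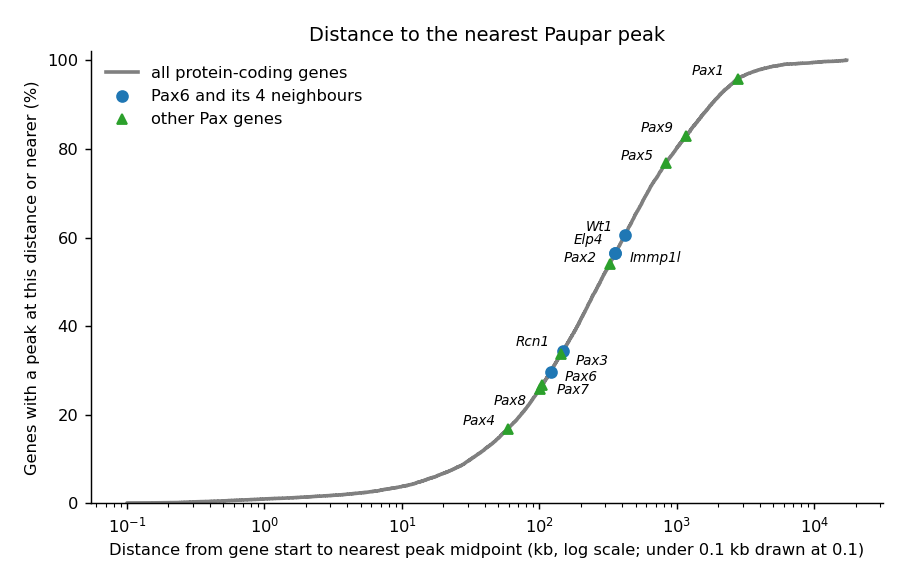
Cumulative share of protein-coding genes (vertical axis, percent) by distance between start and closest peak midpoint (horizontal axis, kb, log scale), with the 5 listed genes as blue circles and the other 8 *Pax* genes as green triangles. *Pax6*, at 120.3 kb, lies on the lower part of the curve and *Wt1*, at 420.3 kb, above the middle.

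None of the 5 genes had a peak midpoint within 100 kb of its start, where 25.8% of all protein-coding genes had one, and none had a midpoint in its body or within 5 kb of it, where 7.07% had one. A regulatory domain was also drawn for each gene, reaching 5 kb before and 1 kb past its start and then outwards as far as the next such domain, or 1 Mb where none came sooner. The domains of *Pax6* and *Rcn1* both held the *Pax6os1* pair, because the space between neighbouring starts belongs to both genes under this rule. Those of *Elp4*, *Immp1l* and *Wt1* held no peak, so 2 of the 5 genes were called, beside 16.5% of all protein-coding genes. The 2 calls rest on the same 2 peaks.

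Of the 19 protein-coding genes that overlap the window, 5 had a peak in their domain: *Pax6*, *Rcn1*, *Mpped2*, *2700007P21Rik* and *Fshb*. Only *Fshb* had a peak within 100 kb of its start, and only *Mpped2* had a peak in its body or within 5 kb. Beside these counts of 5, 1 and 1 of 19 stand 16.5%, 25.8% and 7.07% of all protein-coding genes, and neighbouring genes share peaks in their domains. *Kcna4*, the next gene to the right of the window, had the intergenic peak 140528 bp upstream of its start. Over the 6 distance classes used to look for genes with a like arrangement, from 0 to 5, 5 to 50 and 50 to 100 kb on either side of the start, *Pax6* had no peak in any class. The same held for 74.2% of protein-coding genes, so no gene could be singled out as most like it.

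The other 8 paired box genes of the mouse gave a range of distances around that of *Pax6*. *Pax4*, which acts in pancreatic islet development, was the nearest to a peak, at 58972 bp, with 2 peaks within 100 kb of its start and none in its domain. *Pax8*, a thyroid and kidney factor, had a peak at 100302 bp and *Pax7*, which marks muscle satellite cells, at 104354 bp, and both had peaks in their domain, 3 and 1 respectively. *Pax3*, a neural crest and muscle factor, had its nearest peak at 143555 bp and *Pax2*, of kidney and the midbrain-hindbrain boundary, at 323826 bp. *Pax5*, a B cell factor, was at 829431 bp, and *Pax9* and *Pax1*, which act in the vertebral column, were at 1164036 bp and 2762020 bp. In all, 2 of the 8 had a peak in their domain, 1 had a peak within 100 kb of the start and none had a peak in its body or within 5 kb, beside 16.5%, 25.8% and 7.07% of all protein-coding genes. Over 8 genes these counts are near the background.

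The window as a whole held peaks at about the density of its chromosome. Its 4 peaks gave 1.6 peaks per Mb of unambiguous sequence (exact Poisson interval 0.436 to 4.10, counting error only), beside 1.50 on chromosome 2 and 1.11 on chromosomes 1 to 19 and X. The ratio to chromosome 2 was 1.07, and the interval holds ratios from below to above 1. Within 1 Mb on either side of *Paupar*, where there were 2 peaks, the ratio was 0.666. When the chromosomes were tiled in windows of the same 2.5 Mb, 691 of 992 held fewer peaks than 4, 90 held 4 and 211 held more. On chromosome 2 these numbers were 36, 12 and 22 of 70. The GC content of the window was 41.5%, beside 42.1% for the chromosome.

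The stretches without a peak on either side of the *Pax6os1* pair were longer than the median stretch of the chromosome. The left one, of 1.463 Mb, began 0.577 Mb outside the window and held *Wt1* and *Rcn1*. The right one, of 1.288 Mb, lay whole in the window and held *Pax6*, *Elp4*, *Immp1l*, *Dnajc24* and *Dcdc5*. These ranked 30 and 37 in length among the 267 stretches between neighbouring peaks of chromosome 2, whose median was 307065 bp. All of the listed genes therefore lay whole in these empty stretches, on either side of the pair.

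Counted outwards from the middle of *Paupar*, there was no peak up to 0.1 Mb, 2 between 0.1 and 0.25 Mb, none between 0.25 and 1 Mb and 3 between 1 and 2 Mb. Of the 1845 protein-coding starts of chromosome 2, 77.6% had fewer than 2 peaks up to 0.25 Mb and 9.27% had more. Those 2 peaks are the *Pax6os1* pair, separated by 194 bp, and close peaks were not merged in these counts. The median start had 1 peak up to 0.25 Mb, so the excess rests on counting the pair as 2. Up to 10 Mb there were 16 peaks, where the median start had 28 and 91.8% of starts had more. Between 5 and 10 Mb the density was 0.704 peaks per Mb (0.283 to 1.45), and between 2 and 5 Mb it was 0.667 (0.182 to 1.71). Both are descriptions, and since peaks cluster these intervals are too narrow. Spans of up to 10 Mb around neighbouring starts overlap and hold the same peaks. The 1845 starts are therefore not independent, and the shares of starts are descriptions too.

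**Figure D5:**
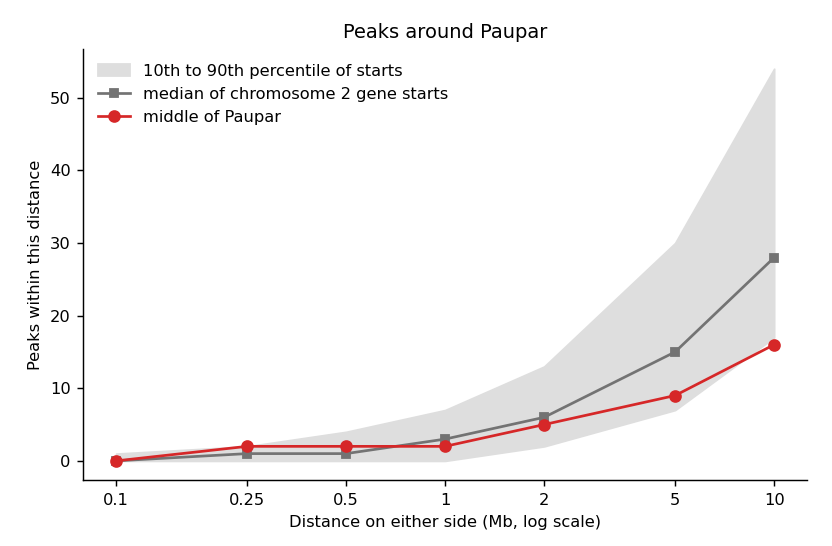
Number of peaks within a given distance on either side (horizontal axis, Mb, log scale) of the middle of *Paupar* in red, and the median (grey squares) and 10th to 90th percentile (shaded) of the same count around the 1845 protein-coding starts of chromosome 2. The red line lies on or above the median line up to 0.5 Mb, where its only peaks are the *Pax6os1* pair, counted as 2. It lies below the median line from 1 Mb outwards, reaching 16 peaks at 10 Mb where the median is 28.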

How the data were processed

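CHART-Seq was performed on N2A cells with 2 *Paupar* pull-downs, 2 matched *LacZ* controls and 1 input DNA library. Paired reads of 50 bases were mapped by the authors to mm9 with Bowtie, keeping reads with a single place and up to 2 mismatches. Peaks were called with MACS2 against the *LacZ* control and against input. The 2849 peaks of the paper are those found against both, so a site called against only 1 of them is not listed. The deposited list holds the start and end of each of 2849 peaks and a score, whose scale the authors do not state in it, so its values are given as deposited. The methods keep calls with a −log10 q-value above 5, and the lowest score in the list is 5.34, but nothing in the list says that the score is that quantity. How calls from both replicates were joined is not given in the sources used here. The list has no counts, so the depth is unknown.

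Distances, domains, sequence matches, repeats and 50-base words were computed with Python 3.11.15, numpy 2.4.6 and scipy 1.17.1 on the NCBIM37 genome, the assembly that mm9 denotes, and its GENCODE annotation; the code was tested on simulated data. Distances run from the gene start to the peak midpoint. 50-base words count as having a single place when no exact copy exists on either strand of chromosomes 1 to 19, X, Y and M. *Paupar*, capture sites and amplicons were placed by exact match of the oligonucleotides in the study's supplement. Described by name were the 5 genes, *Paupar*, *Pax6os1*, genes that hold or start nearest to a window peak, their neighbours, and 8 other *Pax* genes. No test was made, since the list gives no value per library; intervals are exact Poisson or binomial and cover counting error only. Members and lists were chosen with earlier results of these data known.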

Additional observations from a re-analysis of the deposited data

How the results depend on the processing

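23 alternatives were run and 14 left the value the same or within its limits. With 4 peaks these limits are wide, 1.09 to 10.24 for the count and 0.631% to 80.6% for the share with a match. A value within them therefore says little about stability. The window held 3 peaks with a score of at least 10, and 3 when peaks within 10 kb were merged. With peaks counted within 1 Mb on either side of *Paupar*, the window held 2 peaks in place of 4, and their median width was 1558 bp and median score 15.04 (444.5 bp and 13.16 in the window). With a score of at least 10 the median width was 646 bp. From the *Pax6* start to the nearest edge in place of the midpoint was 119053 bp. Of the 5 genes, 2 had a peak in their domain, beside 16.5% of all protein-coding genes. With the gene body and 5 kb around it in place of the domain the count was 0, beside 7.07%. It was 1 when a peak was given only to the nearest gene start (*Pax6*), and 0 when domains reached no more than 100 kb. For these last rules no share over all genes is given, so their counts have no background beside them. A match to a capture oligonucleotide was held by 25% of the window peaks at 10 nt, by 50% at a minimum of 9 nt and by 0% at 11 nt, beside 24.6%, 58.5% and 7.37% of all peaks. The ratio of the peak density to chromosome 2, 1.07, ran from 0.666 to 1.14 over its alternatives, and against chromosomes 1 to 19 and X it was 1.44, all within the counting interval. No paired analysis was possible because the list gives no value per library, and no library could be left out for the same reason. Depth limits are unknown without counts, and a site below the calling threshold is not listed.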
